A study of Mus musculus with 6 samples.

Results

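Diacylglycerol is the lipid messenger that phospholipase C releases, together with inositol trisphosphate, from a membrane phosphoinositide. The genes described here make, remove or respond to it: phospholipase C (PLC) enzymes, diacylglycerol kinases, diacylglycerol lipases, and the protein kinase C (PKC) and protein kinase D (PKD) families. They were taken as a list of 32 gene names, of which 30 had a probe set named for them alone on the array, out of 18193 genes in all. Dgkb and Dgkg were not analysed here. Each gene was represented by its brightest probe set, by the mean of all 6 arrays, and the 3 PKD genes by every probe set.

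The arrays measured RNA of pancreatic islets from mice aged 8 weeks on a mixed SV 129/C57BL/6 background. There were 3 arrays labelled knockout, from Pdx1Cre;PPARbetafl/fl mice, and 3 from PPARbetafl/fl littermates without Cre as controls, each from a different animal. All 6 mice carried the floxed allele of Ppard, the gene of the fatty-acid-activated nuclear receptor PPARβ. The Pdx1 promoter is active in the whole developing pancreas, so Cre was not restricted to beta cells, and with 0 Cre-positive arrays with an intact gene, effects of the deletion and of the Cre transgene cannot be told apart. The labels call the material beta cells, whereas the protocol describes whole islets.

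In islet beta cells, acetylcholine and other ligands of Gq-coupled receptors activate PLC beta enzymes, and diacylglycerol then recruits PKC isoforms to the membrane. Conventional PKC isoforms need calcium as well, another class needs diacylglycerol but no calcium, and the atypical isoforms need neither. PKD kinases bind diacylglycerol and are switched on by PKC, and at the Golgi they promote the budding of secretory carriers. Diacylglycerol also binds proteins without kinase activity, among them the RasGRP exchange factors, the chimaerins and the Munc13 vesicle-priming proteins.

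One kinase gene of the family, Prkd1, rose. Prkd1 encodes PKD1, a kinase with a known part in insulin secretion. A diacylglycerol-binding exchange factor outside the member list, Rasgrp1, rose more strongly. The other 29 member genes did not pass the test. The sequences below are the 250 bases upstream of the RefSeq start of the 3 PKD genes and of Rasgrp1 (build GRCm38.p6, RefSeq's promoter table, first listed start where there are several). The Prkd1 window is that of a start lying 22 bases inside the outermost start of the gene, while the other 3 are those of the outermost start. They are shown because these genes carry the 2 calls and the contrast within the PKD family. Capitals mark AGGTCA, the half-site that PPAR and related nuclear receptors recognise, TTCNNNGAA, the core recognised by STAT factors, and GGGCGG, the GC box, on either strand, and neighbouring matches may overlap.
Prkd1, chr12:50649250-50649499, minus strand: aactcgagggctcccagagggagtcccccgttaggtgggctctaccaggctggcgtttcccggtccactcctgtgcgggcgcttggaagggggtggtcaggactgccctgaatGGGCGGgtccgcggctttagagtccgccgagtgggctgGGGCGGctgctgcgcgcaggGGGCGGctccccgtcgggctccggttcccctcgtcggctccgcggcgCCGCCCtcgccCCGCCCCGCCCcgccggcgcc
Prkd2, chr7:16842652-16842901, plus strand: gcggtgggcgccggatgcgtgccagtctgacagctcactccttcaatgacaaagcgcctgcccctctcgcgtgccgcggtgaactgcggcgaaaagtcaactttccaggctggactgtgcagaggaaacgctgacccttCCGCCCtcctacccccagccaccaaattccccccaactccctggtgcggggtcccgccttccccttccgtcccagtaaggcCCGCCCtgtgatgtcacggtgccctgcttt
Prkd3, chr17:79020817-79021066, minus strand: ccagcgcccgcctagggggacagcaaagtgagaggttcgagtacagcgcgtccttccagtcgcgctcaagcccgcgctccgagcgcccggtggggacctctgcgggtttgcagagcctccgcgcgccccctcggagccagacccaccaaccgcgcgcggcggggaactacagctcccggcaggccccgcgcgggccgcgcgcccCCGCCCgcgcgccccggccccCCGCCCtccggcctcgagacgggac
Rasgrp1, chr2:117342878-117343127, minus strand: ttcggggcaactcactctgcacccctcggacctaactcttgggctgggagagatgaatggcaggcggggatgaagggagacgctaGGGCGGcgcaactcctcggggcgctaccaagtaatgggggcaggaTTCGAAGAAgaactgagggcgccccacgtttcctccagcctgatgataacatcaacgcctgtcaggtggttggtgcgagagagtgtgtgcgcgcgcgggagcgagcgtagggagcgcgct
None of the 4 windows held AGGTCA on either strand. The Rasgrp1 window held 1 TTCNNNGAA match, which began 120 bases before the start, and 1 GC box. The Prkd1 window held 6 GC boxes, against 2 in each of the Prkd2 and Prkd3 windows. Its GC content was 75.6%, against 64.4% for Prkd2 and 77.6% for Prkd3.

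Windows were listed for 27 of the 30 measured members, 42 in all. AGGTCA was present in 4 of these 42 windows (Dgka, Dgkq, Plcb3 and Plcxd1), against 14.0% of all 32851 windows. A direct repeat of this half-site with 1 base between was in 0 of the 42 and in 0.033% of all. TTCNNNGAA was in 3 of 42 (Dgkd, Plcb1 and the second start of Prkd3), against 7.02% of all, and GGGCGG in 27 of 42, against 32.7% of all. Member windows held a median of 15.5 CpG dinucleotides, against 6.0 over all windows. A match of letters is a description of the sequence and says nothing of binding.

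Ppard, the deleted gene per the labels, had a higher mean in the arrays labelled knockout on both of its probe sets, and neither passed. The brighter one had log2 values of 8.01, 8.20 and 7.70 in the arrays labelled knockout and 7.75, 7.56 and 7.12 in controls. Its difference was 0.49 (adjusted p = 0.377, limma). The dimmer one differed by 0.35, and its groups did not overlap (adjusted p = 0.255, limma). The labels name no deleted exon, so these probe sets check nothing about the deletion, and the groups are called by their labels. Array medians lay between 5.39 and 5.49. Islet markers were bright, with Ins2 and Iapp near the top of the range in all 6 arrays. The acinar marker mean, over 25 of 29 listed genes, was 8.62, 5.62 and 5.82 in the arrays labelled knockout and 6.74, 11.05 and 11.22 in controls 1 to 3, so controls 2 and 3 held the most exocrine RNA. The other marker means differed between arrays labelled knockout and controls by -0.33 (beta, 8 of 10 genes), -0.55 (alpha, 5 of 8), -0.60 (delta and PP, 7 of 7), 0.36 (leukocyte, 15 of 16), 0.21 (endothelial, 10 of 10), 0.18 (fibroblast, 10 of 10), -0.38 (duct, 8 of 10) and -0.05 (Schwann and neuron, 7 of 9). Among the endocrine markers Slc30a8 (beta), Ghsr and Rbp4 (delta and PP) fell. Lower without overlap were 1 of 8 beta, 5 of 5 alpha and 6 of 7 delta and PP markers, beside 9.06% of all genes. In islet tissue a difference in RNA per cell and a difference in the share of a cell type cannot be told apart.

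Prkd1 was higher on both of its probe sets. On the brighter one its log2 value was 9.61, 9.83 and 9.79 in the arrays labelled knockout, against 9.02, 8.95 and 8.82 in controls. The lowest array labelled knockout thus stood above the highest control. The difference was 0.82 ± 0.11 on the log2 scale (SE), with a 95% interval of 0.55 to 1.09. The change was 1.76-fold (9.74 ± 0.11 against 8.93 ± 0.10, SD, n = 3 each, limma adjusted p = 0.0311). The other probe set had 8.21, 8.39 and 8.41 in the arrays labelled knockout, against 7.70, 7.60 and 7.52 in controls. It rose by 0.73 ± 0.11 (SE, limma adjusted p = 0.0436), and its groups did not overlap either. The 2 probe sets were read from the same RNA on the same arrays and are not independent measurements. All p-values are two-sided and adjusted over 45037 probe sets, and an adjusted p under 0.05 counts as a call. Of all probe sets, 0.897% passed. Over 1 probe set per gene, 0.852% of all genes passed as higher and 0.247% as lower, and 1 of 30 members passed as higher and 0 as lower.

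The size of the Prkd1 difference held when single arrays were left out, while the call did not. It lay between 0.76 and 0.88 in the 6 fits that left out 1 array, but passed in 1 of them, the one without control 1 (adjusted p = 0.0359, and up to 0.14 in the others). A covariate for the acinar marker mean gave 0.69 (adjusted p = 0.206). Control 1 as the only control, the one with the least acinar RNA, gave 0.73 (adjusted p = 0.208).

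Prkd2 and Prkd3, which encode the other 2 PKD kinases, showed no rise on any probe set. The brightest Prkd2 probe set had 7.53, 7.04 and 7.22 in the arrays labelled knockout, against 7.51, 7.29 and 7.50 in controls, and the groups overlapped. Its difference was -0.17 ± 0.15 (SE), and those of its other 4 probe sets lay between -0.30 and -0.03. The one at -0.30 was dim, at percentile 19.5, and another, at -0.24, stood at percentile 7.3. Prkd3 had 6.56, 6.26 and 6.86 in the arrays labelled knockout, against 7.22, 6.43 and 6.73 in controls. Its difference was -0.24 ± 0.24 (SE), and its other 3 probe sets differed by -0.32 to -0.12. The one at -0.32 was dim, at percentile 4.5. None of these 9 probe sets passed. The intervals allow a rise of at most 0.20 for Prkd2 and 0.32 for Prkd3 on the brightest probe sets.

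The PKD genes were also set against each other within arrays, a contrast formed after their values were seen. Prkd1 minus Prkd2 was 2.08, 2.78 and 2.57 in the arrays labelled knockout, against 1.51, 1.65 and 1.32 in controls, a shift of 0.98. Prkd1 minus Prkd3 shifted by 1.06. In both contrasts the groups did not overlap, but 3 arrays against 3 cannot give an exact two-sided permutation p under 0.1, so these shifts are a description. Prkd2 minus Prkd3 shifted by 0.07.

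**Figure D1:**
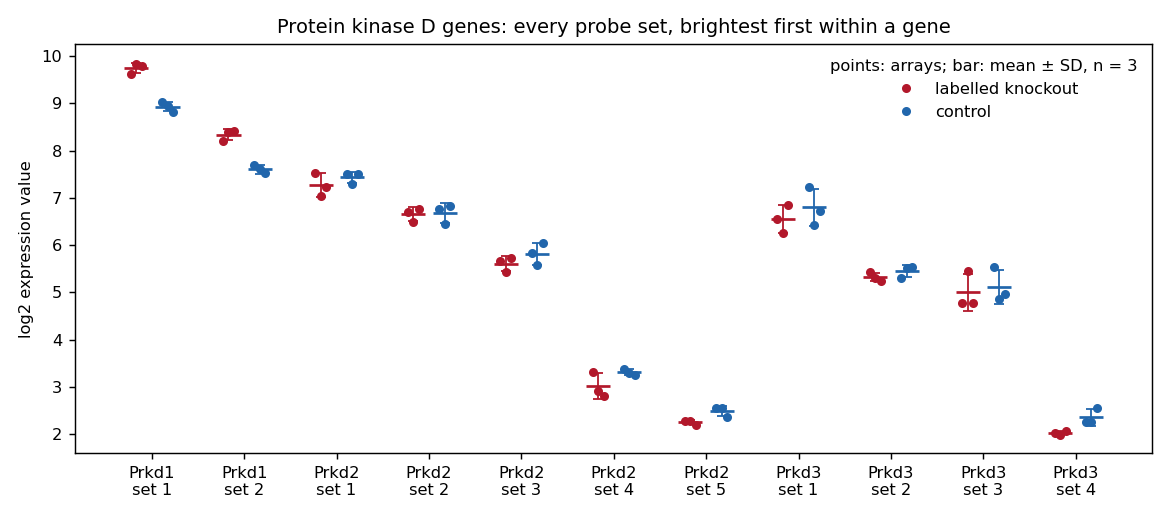
Log2 expression value (vertical axis) of every probe set of Prkd1, Prkd2 and Prkd3, brightest first within each gene. Points are arrays, bars the mean ± SD of 3 arrays. Both Prkd1 probe sets have all arrays labelled knockout above all controls, with differences of 0.82 and 0.73, and no Prkd2 or Prkd3 probe set has a higher mean in the arrays labelled knockout.

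None of the 8 PKC genes passed, beside 0.852% of all genes as higher and 0.247% as lower. Among the calcium-dependent isoforms, Prkca, which encodes PKC alpha, had 9.16, 9.39 and 9.25 in the arrays labelled knockout, against 9.18, 9.16 and 9.24 in controls. Prkcb, of PKC beta, had 9.18, 9.04 and 9.34 in the arrays labelled knockout, against 9.32, 9.14 and 9.06 in controls. Both sets of arrays overlapped, and the differences of 0.08 (interval -0.18 to 0.33) and 0.01 (-0.29 to 0.32) were close to 0.

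The calcium-independent isoforms varied more between arrays. Prkch, of PKC eta, had 5.97, 6.26 and 6.09 in the arrays labelled knockout, against 6.19, 5.12 and 4.98 in controls. Control 1 stood within the knockout-labelled range, and controls 2 and 3, the acinar-rich ones, stood about 1 unit lower. The acinar mean of array 1 labelled knockout (8.62) lay above that of control 1 (6.74). The part of acinar RNA in the Prkch values was not tested. The Prkch difference of 0.68 ± 0.31 (SE, adjusted p = 0.428) was 0.07 with the acinar covariate and -0.09 against control 1 alone. Without control 1 it was 1.06 and passed (adjusted p = 0.0252). The dimmer Prkch probe set did not show this split: it had 6.03, 6.61 and 5.17 in the arrays labelled knockout, against 5.31, 5.80 and 5.17 in controls, with control 2 the highest control. Prkce, of PKC epsilon, had 9.27, 9.20 and 9.17 in the arrays labelled knockout, against 9.29, 8.44 and 8.95 in controls. Its difference was 0.32 ± 0.21 (SE). Of its 3 dimmer probe sets, the brightest also gave 0.32 (percentile 80.2). The next gave -0.01 (percentile 75.2), and the dimmest gave -0.11 at percentile 1.4. Prkcd, of PKC delta, had 6.63, 6.72 and 6.38 in the arrays labelled knockout, against 6.81, 6.96 and 6.73 in controls. Its groups did not overlap, by a narrow margin, and it differed by -0.25 ± 0.13 (SE, adjusted p = 0.488). Prkcq, of PKC theta, the isoform of T cells and muscle, was dim, at percentile 16.8 of all probe sets, and differed by -4e-04.

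Both atypical isoforms had lower means. Prkci, of PKC iota, had 8.24, 8.11 and 8.21 in the arrays labelled knockout, against 8.49, 8.42 and 8.39 in controls. The groups did not overlap, and the difference was -0.25 ± 0.10 (SE, adjusted p = 0.372). Prkcz, of PKC zeta, had 7.43, 7.49 and 7.63 in the arrays labelled knockout, against 7.68, 7.60 and 8.08 in controls, which overlap, and differed by -0.27 ± 0.15 (SE). Its 2 dimmer probe sets differed by 0.24 and 0.01, so its probe sets disagree in sign.

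Diacylglycerol kinases end the signal by converting diacylglycerol to phosphatidic acid. None of the 7 measured passed, beside 0.852% of all genes as higher and 0.247% as lower. Dgkh, of the eta isoform, had 8.19, 8.15 and 8.22 in the arrays labelled knockout, against 8.07, 7.89 and 7.60 in controls. The groups did not overlap, and it differed by 0.33 ± 0.14 (SE, adjusted p = 0.393). All 3 of its probe sets were higher, by 0.33 to 0.44 (the dimmer 2 chosen after their values were seen). Its difference was 0.20 without control 3, 0.44 without control 1 and 0.18 with the acinar covariate. Dgki, of the iota isoform, had 3.06, 3.61 and 4.98 in the arrays labelled knockout, against 3.40, 3.16 and 3.23 in controls. Array 3 of those labelled knockout alone made its mean difference of 0.62 ± 0.45 (SE), on a probe set at percentile 25.2. Among the others, Dgkd (delta) was lower without overlap, at 8.91, 9.12 and 9.05 in the arrays labelled knockout, against 9.20, 9.18 and 9.23 in controls. Its 4 probe sets were all lower, by 0.08 to 0.30 on the log2 scale, and none passed. Dgkz (zeta) and Dgka (alpha) each differed by -0.24, Dgke (epsilon) by 0.16 and Dgkq (theta) by 0.07, none past the test. Dgkq did not overlap either, with 6.44 to 6.46 in the arrays labelled knockout, against 6.29 to 6.43 in controls, a case of a small difference on tight values.

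Diacylglycerol lipases cleave diacylglycerol to the endocannabinoid 2-arachidonoylglycerol. Dagla lay between 6.58 and 6.72 in the arrays labelled knockout, against 6.61 to 6.73 in controls, and differed by -0.01 ± 0.10 (SE). Daglb had 6.96, 8.05 and 7.96 in the arrays labelled knockout, against 8.35, 7.54 and 7.31 in controls. Its spread within each group was over 1 unit, and its difference of -0.08 ± 0.37 (SE) leaves an interval from -0.96 to 0.80.

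**Figure D2:**
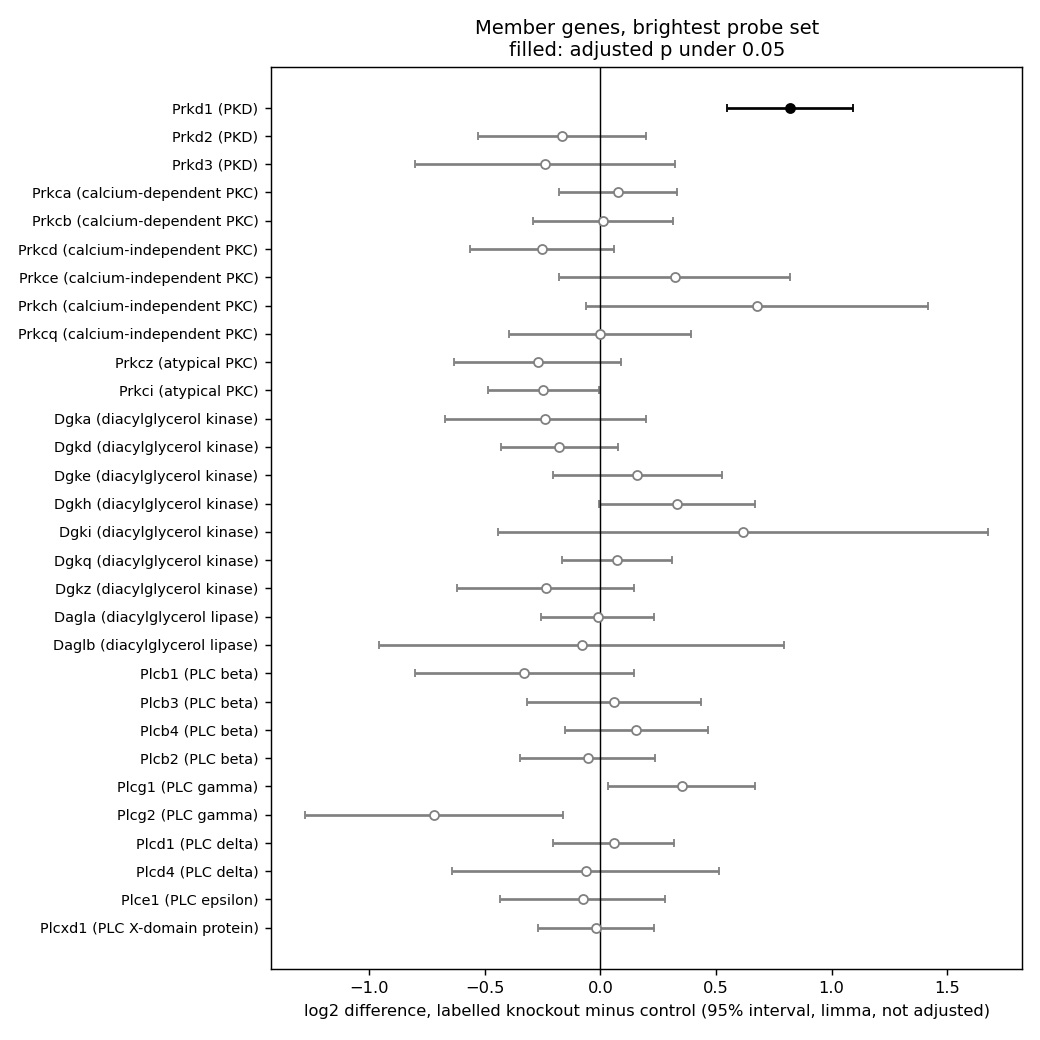
Log2 difference, arrays labelled knockout minus controls (horizontal axis), of the 30 member genes with its 95% limma interval, by role. Prkd1 at 0.82 is the one filled point (adjusted p under 0.05), and Plcg2 at -0.72 is the lowest.

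The 9 PLC enzymes, which make diacylglycerol, gave no call, beside 0.852% of all genes called higher and 0.247% lower. The widest contrast among them lay between the 2 PLC gamma genes, which act downstream of tyrosine kinases. Plcg1 had 10.52, 10.54 and 10.85 in the arrays labelled knockout, against 10.41, 10.18 and 10.27 in controls, and differed by 0.35 ± 0.13 (SE, adjusted p = 0.341). All 3 of its probe sets were higher, by 0.35 to 0.38 (the dimmer 2 chosen after their values were seen). Plcg2, best known from B cells and myeloid cells, had 6.80, 7.24 and 7.15 in the arrays labelled knockout, against 7.54, 7.52 and 8.28 in controls. It differed by -0.72 ± 0.24 (SE, 0.608 times the control level, adjusted p = 0.273), and by -0.47 when control 3, its highest array, was left out. Neither PLC gamma gene overlapped between groups, and neither passed. Cd79a, the one B cell marker measured, had 5.20, 5.05 and 5.59 in the arrays labelled knockout, against 6.14, 5.55 and 5.98 in controls. It differed by -0.61 (adjusted p = 0.282) with overlapping groups, and was highest in control 1, where Plcg2 was highest in control 3. Among myeloid markers, Aif1, Tyrobp and Cd68 were higher without overlap (1.01, 0.65 and 0.56). Csf1r (0.25), Fcer1g (0.23), Adgre1 (0.22), Lyz2 (0.02) and Itgam (-0.30) overlapped. The mean of the whole leukocyte list was higher (5.95 in the arrays labelled knockout against 5.59 in controls), and the part of leukocyte content in the Plcg2 values was not tested.

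PLC beta enzymes, the targets of Gq proteins, overlapped between groups on their brightest probe sets. Plcb1 had 7.29, 7.48 and 7.37 in the arrays labelled knockout, against 8.08, 7.75 and 7.30 in controls. It differed by -0.33 ± 0.20 (SE), and its 5 probe sets were all lower, by 0.07 to 0.40. Plcb4 differed by 0.16 ± 0.13 (SE), with all 5 probe sets higher, 1 of the dim ones without overlap, and Plcb3 and Plcb2 differed by 0.06 and -0.05. Among the calcium-driven PLC delta enzymes, Plcd1 differed by 0.06 and Plcd4 by -0.06, where the 2 dimmer Plcd4 probe sets gave 0.08 and 0.10. Plce1, of the Ras-regulated PLC epsilon, differed by -0.08, and Plcxd1, which encodes a protein with only the X domain of phospholipase C, by -0.02.

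Across the 30 members the median difference was -0.01, beside 0.00 over all 18193 genes. Of the members 13 had a higher and 17 a lower mean, beside 50.4% of all genes with a higher one. In 8 of 30 the groups did not overlap, 4 in each direction, beside 21.2% of all genes (12.1% higher and 9.06% lower), so this count lies near the background. At an unadjusted p under 0.05 there were 2 higher (Prkd1 and Plcg1) and 2 lower (Plcg2 and Prkci), beside 8.37% and 5.58% of all genes. Of the 20 members with several probe sets, 9 had all probe sets higher, 8 had all lower and 3 were mixed (Prkce, Prkcz and Plcd4). For 26 of 30 members the 95% interval excluded a 2-fold change either way, while it reached 2-fold for Prkd1, Prkch, Dgki and Plcg2. Intervals within 1.5-fold either way were obtained for 16 members.

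**Figure D3:**
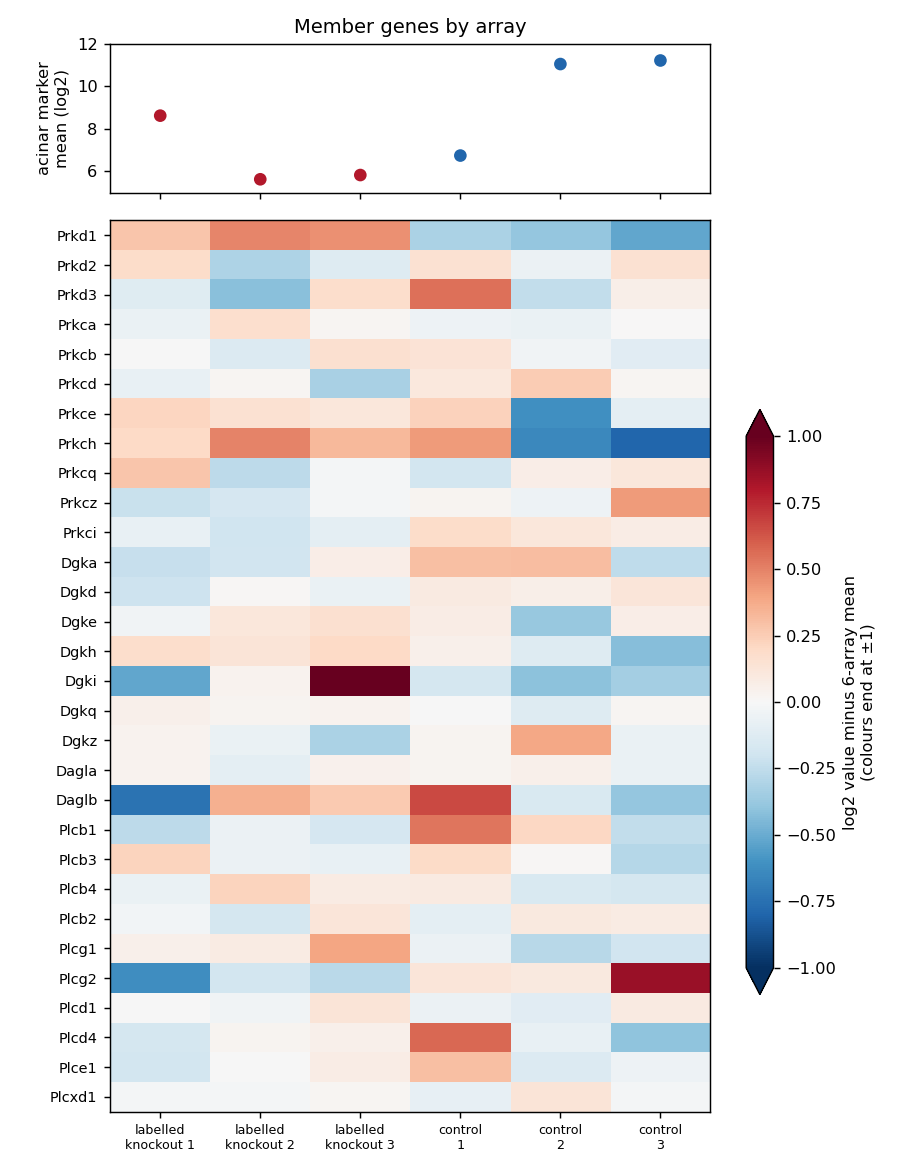
Upper panel, mean log2 value of the acinar markers by array. Lower panel, each member's log2 value minus its own mean over 6 arrays, with colours ending at ±1. Prkd1 is above its mean in all arrays labelled knockout and below it in all controls. Prkch is low in controls 2 and 3 only, which have the acinar means of 11.05 and 11.22. The part of acinar RNA in the Prkch values was not tested.

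The rest of the pathway was described with a list of 68 measured genes. Of these, 1 passed, Rasgrp1, and it rose, beside 0.852% of all genes passing as higher and 0.247% as lower. Rasgrp1 encodes a Ras guanine nucleotide exchange factor that diacylglycerol recruits through the same type of domain as PKC and PKD, and is best known from T cells. Its brightest probe set had 9.69, 9.86 and 9.28 in the arrays labelled knockout, against 6.57, 5.94 and 5.88 in controls. The groups were separated by over 2 units. The difference was 3.48 ± 0.23 (SE), or 11.2-fold (9.61 ± 0.30 against 6.13 ± 0.38, SD, n = 3 each, limma adjusted p = 0.00196). The other 3 probe sets rose by 2.92, 3.24 and 2.95 and passed too (adjusted p = 0.0021, 0.0142 and 0.00763). The call was kept in all 6 fits that left out 1 array, with differences of 3.36 to 3.70, and with an acinar term in the model (3.20, adjusted p = 0.0214). With control 1 as the only control it was 3.04 (adjusted p = 0.051).

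Leukocyte markers as a list were higher in the arrays labelled knockout. Of the 15 measured, 7 were higher without overlap (Ptprc, Cd52, Laptm5, Tyrobp, Cd68, Coro1a and Aif1) and 1 was lower without overlap (Cd3g), beside 12.1% and 9.06% of all genes. Ptprc, the pan-leukocyte marker CD45, differed by 1.27, the macrophage marker Aif1 by 1.01 and Cd52 by 0.80 (limma adjusted p = 0.275, 0.109 and 0.103). Other macrophage and myeloid markers were divided. Tyrobp and Cd68 differed by 0.65 and 0.56 without overlap. Csf1r (0.25), Fcer1g (0.23), Adgre1 (0.22), Lyz2 (0.02) and Itgam (-0.30) overlapped between groups. The Ptprc groups were apart by a narrow margin, with 4.860 in array 2 labelled knockout against 4.853 in control 1. Controls 2 and 3 had 3.11 and 3.61. Aif1 had 7.20 in control 1, against 6.37 and 6.53 in controls 2 and 3. Laptm5 alone passed as higher, and 0 passed as lower, beside 0.852% and 0.247% of all genes. Cd3e, a chain of the T cell receptor complex, had 3.21, 3.38 and 3.36 in the arrays labelled knockout, against 3.23, 3.23 and 3.52 in controls, at percentile 21.8. Cd3g differed by -0.36 (adjusted p = 0.342). Per array, the mean over the leukocyte list lay at 5.87 to 6.08 in the arrays labelled knockout, against 5.47 to 5.66 in controls, and its part in the Rasgrp1 values was not tested.

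Chn1, which encodes alpha-chimaerin, a diacylglycerol-binding GTPase-activating protein that turns Rac off, lay just outside the threshold. It had 8.64, 8.69 and 8.57 in the arrays labelled knockout, against 8.01, 7.77 and 7.54 in controls, which do not overlap. The difference was 0.86 ± 0.14 (SE, adjusted p = 0.0523), and it passed in 5 of the 14 alternative settings. Its dimmer probe set differed by 0.28 ± 0.20 (SE). Of the 4 Munc13 genes, which encode vesicle-priming factors, Unc13b differed by 0.45 ± 0.16 (SE, adjusted p = 0.307, with a dimmer probe set at -0.11), Unc13a by -0.01, Unc13c by -0.08 and Unc13d by -0.23 (all chosen after their values were seen), and none passed.

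**Figure D4:**
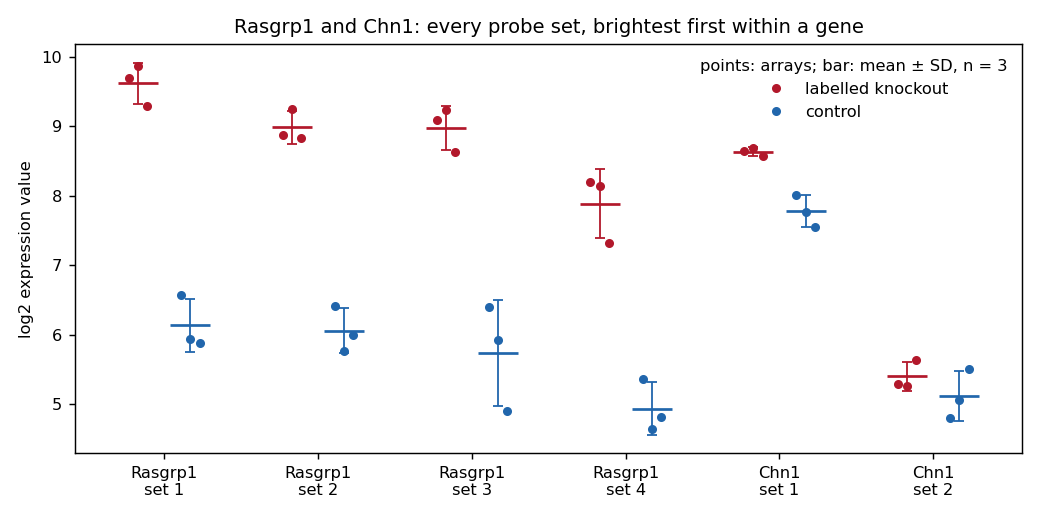
Log2 expression value (vertical axis) of every probe set of Rasgrp1 and Chn1. Points are arrays, bars the mean ± SD of 3 arrays. All 4 Rasgrp1 probe sets are separated by 2.92 to 3.48 units between group means, and the bright Chn1 probe set by 0.86.

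In the remaining groups of that list 0 of 58 genes passed, beside 0.852% of all genes as higher and 0.247% as lower. The examples below are the 2 with the smallest p of each group. Among 11 Gq-family proteins and receptors, P2ry1, a purinergic receptor, differed by -0.57 ± 0.17 and the muscarinic receptor gene Chrm3 by 0.23 ± 0.11 (SE, adjusted p = 0.227 and 0.47). Among 8 remaining phospholipase C genes, Plcxd3 differed by -0.78 ± 0.20 and Plcxd2 by 0.54 ± 0.20 (SE, adjusted p = 0.164 and 0.332). Among 4 kinase and anchor genes, Cavin3 differed by 0.38 and the scaffold gene Akap12 by 0.51, where Akap12 was 0.04 in the fit against control 1 alone. Of 17 PKC and PKD substrates, Marcksl1 differed by 0.82 ± 0.25 (SE, adjusted p = 0.241) and the cofilin phosphatase gene Ssh1 by 0.39, with 2 dimmer Ssh1 probe sets at -0.14 and -0.07. Of 18 genes that make or remove diacylglycerol, the lipid phosphatase gene Plpp3 differed by 0.65 ± 0.17 (SE, adjusted p = 0.17) and the monoacylglycerol lipase gene Abhd6 by 0.32 ± 0.11 (SE, adjusted p = 0.304). The median difference over the 68 genes was 0.03.

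**Figure D5:**
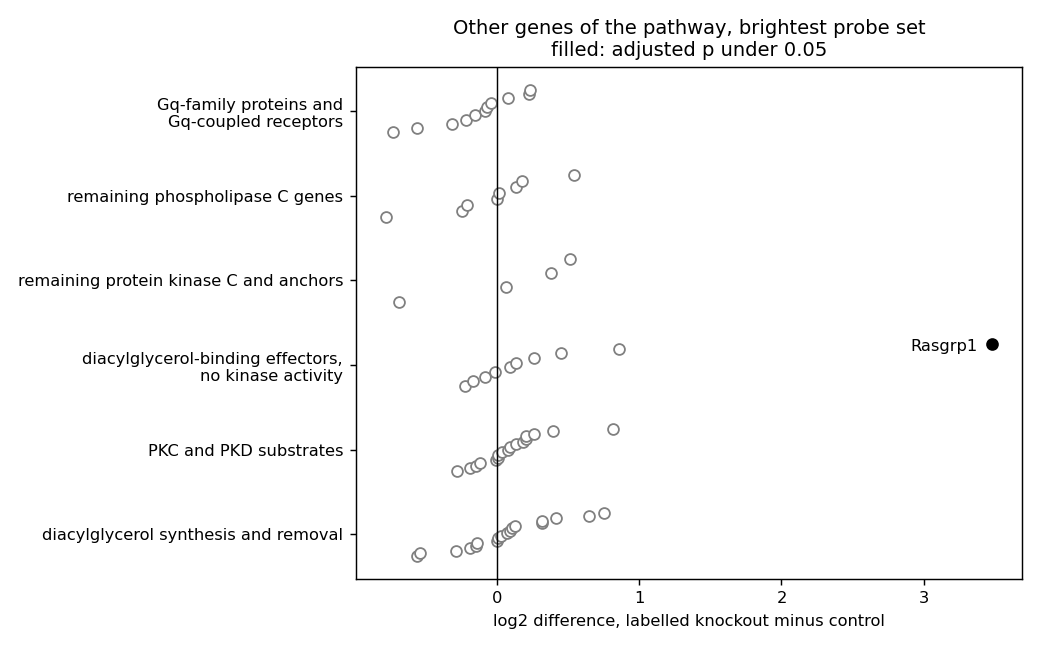
Log2 difference, arrays labelled knockout minus controls (horizontal axis), of the 68 other pathway genes, by role. Each point is a gene, and Rasgrp1 at 3.48 is the one filled point (adjusted p under 0.05).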

How the data were processed

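The authors deposited log2 values, 1 per probe set and array, made with RMA per the submitters' processing notes (no version given). Per the labels' protocols RNA was amplified once and labelled with biotin. The files hold no detection calls, so a dim probe set is named by the percentile of its mean. Of 45101 probe sets, 64 manufacturer's controls were left out, and 34945 had a single symbol in the platform annotation. Groups (3 arrays each, which limits the precision) entered 1 linear model with group as the only term (lmFit and eBayes of limma 3.58.1, R 4.3.3), with Benjamini-Hochberg adjustment over all 45037 probe sets. The fit was also run on simulated data with independent noise for each probe set. That run held no shift shared between probe sets, such as the acinar one, so it does not bear on the calls here. Named were all members, all PKD probe sets, members' further probe sets that passed or differed in sign, each other pathway gene called and the 2 with the smallest p per role. Members and lists were chosen with earlier results of these data known. Alternatives left out arrays, changed scaling, filter, variance model or probe set summary, or added a replicate block or an acinar covariate.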

Additional observations from a re-analysis of the deposited data

How the results depend on the processing

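Over the 14 alternatives, Prkd1 kept its sign in all and passed in 6, with a difference of 0.69 to 0.88. Rasgrp1 kept its sign in all and passed in 13. Prkch changed sign in 1, without passing. Members called higher numbered 0 to 2 when 1 array was left out, and 0 with the replicate block, with the acinar covariate and without controls 2 and 3. That last fit takes the spread of the lone control from the other group. Other pathway genes called numbered 1 to 5 when 1 array was left out, 2 after quantile normalization again, 2 above the median level, 2 with trend and robust, 2 with the mean of a gene's probe sets, and 0 without controls 2 and 3. Probe sets called over the whole array numbered 404. They numbered 152 to 783 when 1 array was left out, 246 with the replicate block, 903 with trend and robust, 133 with the acinar covariate and 54 without controls 2 and 3. The members' median difference was -0.11 without controls 2 and 3. The cause of these shifts was not tested. Prkd1 did not pass with the replicate block (adjusted p = 0.0996). Same-numbered arrays deviated together at r = -0.05, 0.14 and 0.00 over probe sets, so the numbers were not taken as pairs.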
